A study of Mus musculus with 6 samples.

Results

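Immediate early genes are the genes a cell transcribes first after a stimulus, using factors that are already present and without making new protein. The 10 examined here are *Fos*, *Fosb*, *Jun* and *Junb*, which encode subunits of the transcription factor AP-1, *Egr1*, a zinc-finger transcription factor, *Nr4a1* and *Nr4a2*, orphan nuclear receptors, *Ier2* and *Ier3*, immediate early response genes, and *Btg2*, an antiproliferative gene. They were taken by gene symbol from the count columns, as 10 of 16640 genes, and all 10 passed the filter on low counts that 12516 genes passed. The RNA came from MIN6 cells, a mouse β-cell line derived from an insulinoma, cultured in high-glucose medium. The control was made with dCas9 and an sgRNA that has no target, and *Thada*-activated cells carried dCas9 fused to the activator VP64 together with an sgRNA that recruits MS2-P65-HSF1, a system that drives an endogenous promoter without cutting DNA. All components were delivered by lentivirus to stable cells under antibiotic selection, the line is transformed, and the labels name no acute stimulus. Each condition had 3 libraries, numbered as replicates 1, 2 and 3.

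In β-cells, as elsewhere, Ras and the kinase ERK act on these promoters through the ternary complex of SRF and ELK proteins, and calcium and cAMP act through CREB. Glucose, which depolarizes the β-cell and lets calcium in, is a known inducer of *Fos*, *Egr1* and *Nr4a1*. The proteins then switch the next genes on or off, and the mRNAs are destroyed quickly, many of them through AU-rich elements that bind ZFP36 and recruit the CCR4-NOT deadenylase. A snapshot of their mRNA therefore reads the balance of recent transcription and decay. In bulk RNA, fewer cells that express a gene and less of its RNA in each cell cannot be told apart.

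The totals of estimated counts in replicates 1, 2 and 3 were 17272834, 17166511 and 17689611 for control cells, compared with 17727004, 17385036 and 17224631 for *Thada*-activated cells. Below, CPM is the count of a gene relative to the TMM-scaled total of its library, and a single count was worth from 0.0563 to 0.0586 CPM. *Thada* itself, the target of the activation, had 28.1, 28.9 and 17.2 CPM in replicates 1, 2 and 3 of the control, whereas the activated libraries had 57.3, 56.2 and 49.1 CPM. Every *Thada*-activated library therefore lay above every control library, as the labels say, and the fitted fold change was 2.19. With the replicate block, that is, with the replicate number as a paired term, the fold was 2.22 and edgeR called it (adjusted p = 0.00041), whereas without it edgeR gave an adjusted p of 1 and the DESeq2 Wald test one of 0.0185.

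The replicate 3 libraries stood apart from the others over all tested genes. The first principal component held 77% of the variance over the tested genes and placed control replicate 3 at 55 and *Thada*-activated replicate 3 at 49.4, against -25.4 to -27 for the other 4 libraries. Replicate numbers have no order, and nothing in the labels says what distinguished number 3. Each gene is therefore given below within each replicate number, and replicate 3 is described against replicates 1 and 2.

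The cells had the β-cell markers that their label implies. Of 12 such markers all were listed and 11 passed the filter, their summed level ran from 98400 to 132000 CPM in the 6 libraries, and *Ins2*, which encodes insulin, was the most abundant. *Slc2a2*, the glucose transporter gene, was the exception, with 0.0586, 0.233 and 0.0574 CPM in control and 0.169, 0.173 and 0.512 CPM in *Thada*-activated cells, by replicate number. The other islet hormones and their regulators, with *Sst* as the most abundant gene and 4 of 7 passing the filter, summed to 202, 169 and 116 CPM in control and 187, 177 and 120 CPM in *Thada*-activated replicates 1, 2 and 3. Of 10 acinar and duct markers, 4 of the 5 listed were at or under 3 counts in every library and *Krt19* was the most abundant gene. The acinar and duct markers summed to 0.644, 0.524 and 0.516 CPM in control and 2.42, 1.5 and 1.08 CPM in *Thada*-activated replicates 1, 2 and 3. Fibroblast and endothelial markers, led by *Col1a1*, summed to 3.51, 3.2 and 6.14 CPM in control and 3.55, 4.26 and 7.45 CPM in *Thada*-activated replicates 1, 2 and 3, with *Cdh5* and *Kdr* at or under 3 counts in every library. Immune markers, led by *Cd68*, summed to 1.23, 0.64 and 0.574 CPM in control and 1.41, 1.32 and 0.683 CPM in *Thada*-activated replicates 1, 2 and 3, with *Adgre1*, *Lyz2* and *Cd3e* at or under 3 counts. The sum of islet hormones was lower in both replicate 3 libraries mainly through *Sst*, at 0.453 times its level in replicates 1 and 2 by the fitted fold. *Gcg* was lower there too, at 0.788 times, while *Ppy* and *Irx2* were higher, at 1.63 and 1.41 times. The sum of fibroblast and endothelial markers was higher in both, *Cd68* was lower in both (0.402 and 0.569 CPM against 0.582 to 1.24 CPM in the other 4), the sum of *Krt19*-led duct markers was higher in *Thada*-activated cells, and their part in the results was not tested.

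Levels of different genes were compared per length, as FPKM. In control cells the order of the mean FPKM was *Egr1* (42.8 ± 18.6, SD, n = 3), *Junb* (24.2 ± 8.46), *Nr4a1* (22.5 ± 2.42), *Jun* (20.5 ± 2.86), *Btg2* (18.6 ± 6.92), *Ier2* (14.3 ± 1.76), *Ier3* (13.3 ± 9.67), *Fos* (8.83 ± 0.606), *Fosb* (3.01 ± 1.14) and *Nr4a2* (2.62 ± 0.87). In *Thada*-activated cells the mean FPKM was 35.3 ± 12.6 (SD, n = 3) for *Egr1*, 24.1 ± 9.22 for *Junb*, 22.7 ± 3.1 for *Jun*, 19.9 ± 5.31 for *Btg2*, 19.7 ± 3.83 for *Nr4a1*, 13.5 ± 0.69 for *Ier2*, 11.6 ± 7.98 for *Ier3*, 7.03 ± 0.858 for *Fos*, 2.55 ± 0.82 for *Nr4a2* and 2.49 ± 0.672 for *Fosb*. Most neighbours in these orders differed by less than the larger SD of the 2, so the order among them was not fixed. The order also depended on the replicate number. *Egr1* led in replicates 1 and 2 of both conditions, whereas in replicate 3 *Junb* led, with 34 FPKM in control and 34.7 FPKM in *Thada*-activated cells against 21.6 and 21 FPKM for *Egr1*.

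Between conditions, 0 of the 10 genes were called by edgeR at an adjusted p below 0.05 and a change of more than 1.5-fold, where 0 of 12516 tested genes (0%) were called at all. At an unadjusted p under 0.05 there were 101 tested genes, none of them among the 10, and DESeq2 called 5 genes, again none of the 10. This edgeR fit did not call *Thada* either, so the lack of calls in it says little about the 10 genes. Its biological coefficient of variation was 0.253, against 0.063 with the replicate block. With the replicate block edgeR called 19 of 12516 genes (0.152%) and still 0 of the 10. The estimates were nonetheless mostly negative, with 8 of the 10 lower in *Thada*-activated cells, where 6423 of 12516 tested genes were. The median log2 fold change of the 10 was -0.14 beside a median of -0.0040 over all tested genes. Among the 8, the estimates of *Fosb*, *Junb*, *Nr4a2* and *Ier3* changed sign without control replicate 3.

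**Figure D1:**
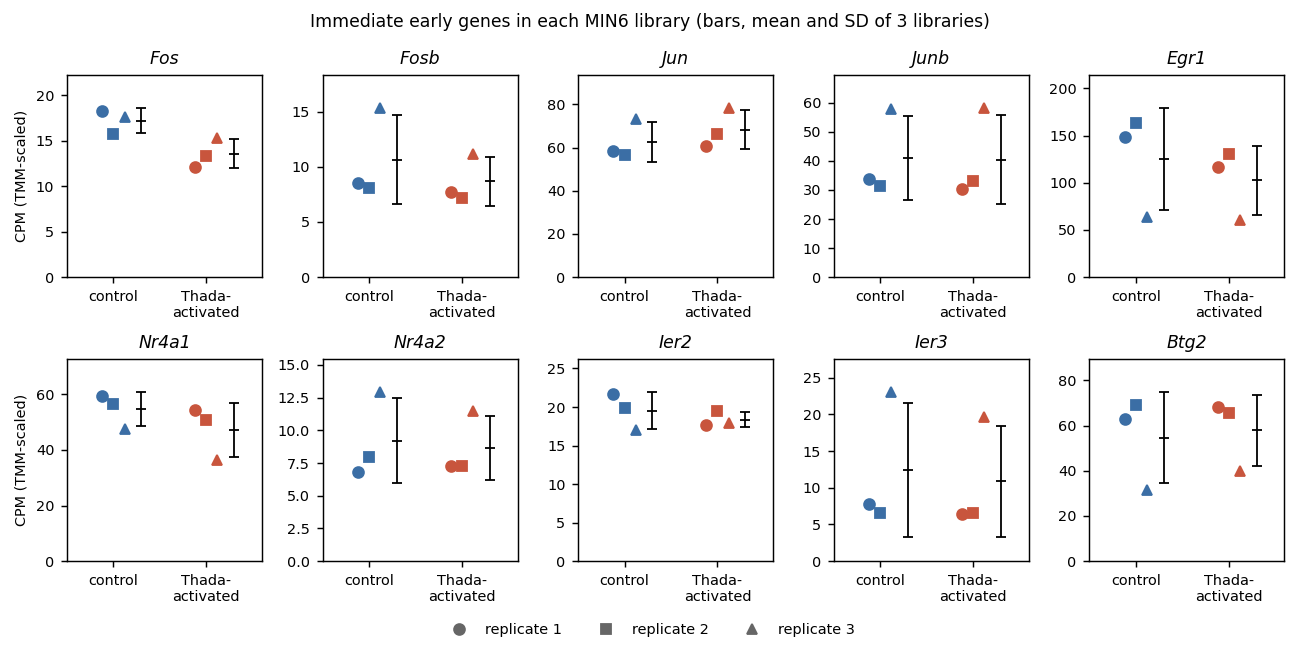
CPM (y axis, from 0, scaled by TMM) of each of the 10 immediate early genes in the 3 control and 3 *Thada*-activated libraries, with replicates 1, 2 and 3 as circles, squares and triangles and the mean ± SD of 3 libraries as bars. The replicate 3 triangles lie above the other libraries for *Ier3*, *Junb*, *Fosb*, *Nr4a2* and *Jun* and below them for *Egr1*, *Btg2* and *Nr4a1*, in both conditions, whereas by TPM *Jun* overlaps the other libraries and *Ier2* lies below them.

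Within replicate numbers, 5 of the 10 genes, *Fos*, *Fosb*, *Egr1*, *Nr4a1* and *Ier3*, were lower in the *Thada*-activated library of all 3 numbers, where 16.7% of tested genes were. *Jun* was the 1 gene higher in all 3, where 16.3% of tested genes were. The other 4 genes, *Junb*, *Nr4a2*, *Ier2* and *Btg2*, had both signs. Replicates 1, 2 and 3 had 7, 8 and 6 of the 10 genes lower in *Thada*-activated cells, whereas 49.9%, 49.8% and 50.9% of all tested genes were. By TPM, *Egr1* was higher in the *Thada*-activated library of replicate 3 (log2 difference 0.11), and it is then not among those lower in all 3. Fitted with the replicate block, 4 of the 10 genes, *Fos*, *Fosb*, *Egr1* and *Nr4a1*, had an unadjusted p under 0.05 and were lower in *Thada*-activated cells, where 4.34% of tested genes were, and the smallest adjusted p of edgeR among the 10 was 0.209.

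*Fos* encodes c-Fos, which binds DNA only as a partner of a Jun protein. Replicates 1, 2 and 3 of the control had 18.3, 15.7 and 17.6 CPM of it, whereas those with *Thada* activated had 12.1, 13.3 and 15.3 CPM. All 3 *Thada*-activated libraries lay below all 3 control libraries, though the nearest values of the groups differed by less than either group's own range, and 2.71% of tested genes were lower without overlap. *Fos* was the 1 gene of the 10 without overlap. The fitted fold change was 0.789, or -0.34 on the log2 scale (SE 0.14, 95% interval -0.69 to 0.01), with an adjusted p of 1 by edgeR. An exact two-sided permutation test over the 6 libraries gave p = 0.1, the smallest that 3 against 3 libraries can give. With the replicate block the log2 fold change was -0.34 (SE 0.11) at an adjusted p of 0.281 by edgeR. In replicates 1, 2 and 3 the log2 difference was -0.60, -0.24 and -0.20, so that replicate 1 held the widest gap. Among the 10 genes *Fos* was also the one with the smallest replicate 3 term (0.15 on the log2 scale, SE 0.10), and by TPM control replicate 3 was lower than control replicates 1 and 2 (-0.24) where by CPM it was level with them (0.05).

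*Fosb* encodes FosB and, by splicing, ΔFosB, a long-lived form that accumulates under repeated stimulation. Its control libraries had 8.55, 8.09 and 15.3 CPM and its *Thada*-activated libraries 7.71, 7.13 and 11.2 CPM in replicates 1, 2 and 3. Both replicate 3 libraries exceeded the other 4, and within each number the *Thada*-activated library was the lower. The log2 difference was -0.15, -0.18 and -0.45 in replicates 1, 2 and 3, and the fitted fold change was 0.815 (log2 -0.29, SE 0.32). Replicate 3 was 1.84 times the level of replicates 1 and 2 in control cells and 1.51 times in *Thada*-activated cells.

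*Jun* encodes c-Jun, the partner of Fos proteins and a target of the stress kinase JNK. It had 58.4, 56.4 and 73.1 CPM in control and 60.8, 66.1 and 78.2 CPM in *Thada*-activated cells, by replicate number. The conditions overlapped, because control replicate 3 exceeded *Thada*-activated replicates 1 and 2, but within each replicate number *Thada*-activated cells had more. The fitted fold change was 1.09 (log2 0.13, SE 0.15). Replicate 3 was 1.27 times the level of replicates 1 and 2 in control and 1.23 times in *Thada*-activated cells, and so stayed under a 1.5-fold difference. *Jun* and *Fos*, the partners in the classical AP-1 dimer, thus had estimates of opposite sign between conditions, neither of which passed the test. The antisense gene *Junos* overlaps *Jun*, and reads of the pair cannot be told apart where the strand is not stated.

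*Junb*, whose product is a weaker activator than c-Jun and can restrain it, was the AP-1 gene with the largest fitted replicate 3 term, though in control cells alone *Fosb* differed more. It stood at 33.9, 31.4 and 57.8 CPM in control and 30.2, 33.1 and 58.1 CPM in *Thada*-activated cells, by replicate number. The conditions were interleaved and their estimate was close to 0 (log2 -0.02, SE 0.35), whereas both replicate 3 libraries were far above the other 4. Replicate 3 was 1.77 times the level of replicates 1 and 2 in control and 1.84 times in *Thada*-activated cells. *Junb* shares part of its locus with *Prdx2* on the opposite strand, and without a stated strand their reads there cannot be told apart. *Prdx2* was lower in replicate 3, at 173 and 181 CPM in control and *Thada*-activated cells against 200 to 208 CPM in the other 4 libraries.

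*Egr1* links growth factor and glucose signals to transcription and in β-cells is known to act on *Pdx1*. Its control replicates 1, 2 and 3 had 149, 163 and 63.8 CPM and its *Thada*-activated replicates 117, 130 and 60.5 CPM. The lowest 2 libraries were the 2 of replicate 3, and among the other 4 both *Thada*-activated libraries lay below both control libraries. The log2 difference between conditions was -0.35, -0.33 and -0.08 in replicates 1, 2 and 3. Over all 6 libraries the fold change was 0.818 (log2 -0.29, SE 0.43, interval -1.35 to 0.77), and with the replicate block it was 0.836 (log2 -0.26, SE 0.07, adjusted p = 0.209 by edgeR). Replicate 3 had 0.409 of the level of replicates 1 and 2 in control cells and 0.49 in *Thada*-activated cells.

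For *Egr1* the conditions were thus farther apart in replicates 1 and 2 than in replicate 3. For *Fos* replicate 1 stood out, while replicate 2 was about level with replicate 3 (log2 differences of -0.60, -0.24 and -0.20 by number), and *Fosb* and *Nr4a1* were farthest apart in replicate 3. In a fit of the 4 libraries of replicates 1 and 2, chosen after seeing these differences, the log2 fold change was -0.34 for *Egr1* and -0.42 for *Fos*, with an adjusted p of 5.54e-05 and 0.0128 by edgeR and a fold change under 1.5 for both. In that fit 180 of 12480 tested genes (1.44%) were lower at an adjusted p under 0.05, 2 of the 10 genes among them. Since the 4 libraries were chosen by the differences that the fit then tests, these p-values restate them and are given as a description. Over the alternatives that used replicate 3, leaving a library out included, neither gene was called, and whether the difference between conditions itself differed in replicate 3 was not tested.

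*Nr4a1* encodes Nur77, an orphan receptor that glucose and cAMP induce in β-cells, and *Nr4a2* encodes the related Nurr1. *Nr4a1* had 59.5, 56.5 and 47.7 CPM in control and 54.3, 50.9 and 36.3 CPM in *Thada*-activated replicates 1, 2 and 3. Within every number the *Thada*-activated library was lower, and both replicate 3 libraries were below the other 4. The log2 difference between conditions was -0.13, -0.15 and -0.39, with a fitted fold change of 0.864 (log2 -0.21, SE 0.18). *Nr4a2*, much less abundant, had 6.79, 7.97 and 12.9 CPM in control and 7.26, 7.25 and 11.5 CPM in *Thada*-activated replicates 1, 2 and 3. Here the conditions overlapped in replicates 1 and 2 and the replicate 3 libraries were the highest, so that the 2 receptors moved in opposite directions in replicate 3. *Nr4a1* had 0.823 and 0.692 and *Nr4a2* 1.74 and 1.58 of the level of replicates 1 and 2 in control and *Thada*-activated cells. *Nr4a3*, the remaining gene of the family, had 8.78 and 8.87 CPM in replicate 3 of control and *Thada*-activated cells against 6.03 to 7.26 CPM in the others.

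*Ier2* encodes a small nuclear protein, and *Ier3* encodes IEX-1, which acts on survival and on ERK and NF-κB signalling. *Ier2*, like *Fos*, was not split by replicate 3, with 21.7, 19.9 and 17 CPM in control and 17.7, 19.5 and 17.9 CPM in *Thada*-activated replicates 1, 2 and 3. Its libraries overlapped by condition and by replicate number, and the fitted fold change was 0.941 (log2 -0.09, SE 0.13). *Ier3* had 7.79, 6.63 and 23 CPM in control libraries of replicates 1, 2 and 3, against 6.48, 6.56 and 19.6 CPM in the *Thada*-activated libraries. The 4 libraries of replicates 1 and 2 lay between 6.48 and 7.79 CPM, and both replicate 3 libraries lay far above them. Replicate 3 had 3.19 times the level of replicates 1 and 2 in control and 2.99 times in *Thada*-activated cells, the widest difference of the 10 genes. Between conditions the fold change was 0.871 (log2 -0.20, SE 0.66), and its wide error came from this spread within each condition. With the replicate block the estimate was -0.19 with an SE of 0.11.

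*Btg2*, which p53 and growth signals induce, encodes an adaptor that brings the CCR4-NOT deadenylase to mRNA. It had 63.1, 69.1 and 31.7 CPM in control and 68.4, 65.6 and 39.8 CPM in *Thada*-activated replicates 1, 2 and 3. Replicates 1 and 2 of the conditions were interleaved, and both replicate 3 libraries were the lowest. The fold change between conditions was 1.06 (log2 0.08, SE 0.35), and replicate 3 had 0.481 and 0.595 of the level of replicates 1 and 2 in control and *Thada*-activated cells. *Btg1*, which encodes a protein of the same family, had the opposite pattern, with 149 CPM in both replicate 3 libraries against 68 to 78.5 CPM in the other 4.

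The signs of 5 condition estimates changed when single libraries were left out of the fit without the replicate block, which unbalances replicate 3 between the conditions. Without control replicate 3, the log2 fold changes of *Fosb*, *Junb*, *Nr4a2*, *Ier3* and *Btg2* were 0.061, 0.31, 0.23, 0.59 and -0.19, each opposite in sign to its estimate over all 6 libraries, and without *Thada*-activated replicate 1 or 2 the last 4 changed sign too. With replicate 3 left out of both conditions, an alternative added after seeing the data, the signs were those of all 6 libraries, at -0.16, -0.044, -0.025, -0.15 and 0.020, and so they were with the replicate block. The estimates of *Fos*, *Jun*, *Egr1*, *Nr4a1* and *Ier2* kept their sign when each library was left out in turn, but not their size, with *Jun* from 0.018 to 0.25, *Nr4a1* from -0.32 to -0.054 and *Ier2* from -0.18 to -0.0029. None of these values passed the test.

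Against replicates 1 and 2, replicate 3 split the 10 genes into groups. Both replicate 3 libraries were above all 4 others with a fold over 1.5 within each condition for 4 genes, *Ier3*, *Junb*, *Fosb* and *Nr4a2*, where 12.6% of tested genes met the rule. Both were below for 2 genes, *Egr1* and *Btg2*, where 12.1% did. *Jun* (higher) and *Nr4a1* (lower) lay outside the other 4 libraries with smaller differences, and *Fos* and *Ier2* overlapped them. The fitted replicate 3 terms on the log2 scale were 1.63 (SE 0.10) for *Ier3*, 0.85 (SE 0.07) for *Junb*, 0.74 (SE 0.11) for *Fosb*, 0.73 (SE 0.11) for *Nr4a2*, 0.32 (SE 0.06) for *Jun*, 0.15 (SE 0.10) for *Fos*, -0.17 (SE 0.09) for *Ier2*, -0.40 (SE 0.07) for *Nr4a1*, -0.90 (SE 0.08) for *Btg2* and -1.16 (SE 0.08) for *Egr1*. No test is given for these terms, since replicate 3 was known from the same libraries to stand apart. Their median absolute size was 0.74, beside 0.38 over all tested genes, and the largest difference between replicates 1 and 2 of a condition among the 10 genes was 0.23. The immediate early genes therefore did not shift together: the *Egr1* and *Btg2* mRNAs were low in the same libraries in which *Ier3* and *Junb* were high.

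**Figure D2:**
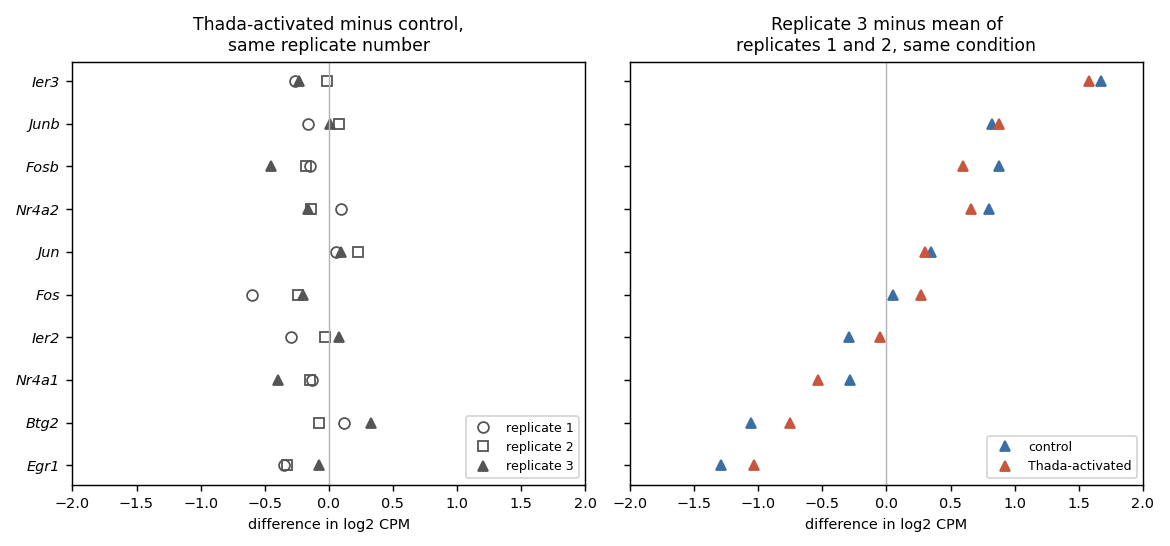
Differences in log2 CPM (x axis) of the 10 immediate early genes, as *Thada*-activated minus control within replicate numbers 1 (open circles), 2 (open squares) and 3 (filled triangles) on the left, and as replicate 3 minus the mean of replicates 1 and 2 in control and *Thada*-activated cells on the right. Differences between conditions run from -0.60 for *Fos* in replicate 1 to 0.33 for *Btg2* in replicate 3, whereas replicate 3 differences run from -1.29 for *Egr1* to 1.67 for *Ier3*.

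Scaling bore on this split. As TPM, the median log2 difference of all tested genes between replicate 3 and replicates 1 and 2 was -0.28 in control cells and -0.09 in *Thada*-activated cells, because the sum of FPKM was 848219 and 762266 in these libraries against 691492 to 715234 in the others. By deposited TPM 3 of the 10 genes met the rule, *Ier3*, *Egr1* and *Btg2*, and the split of all genes that did was 990 higher and 2132 lower, against 1571 higher and 1515 lower by CPM. By the same TPM, *Jun* in control replicate 3 (28.1) did not exceed all other libraries, and *Ier2* was below them in both replicate 3 libraries (14.5 and 17.2 TPM). Once the median of the tested genes was set equal in every library, TPM gave 6 of the 10 again, 4 higher and 2 lower. Relative to that median, the log2 TPM of *Fos* in replicate 3 was 0.04 above replicates 1 and 2 in control cells and 0.27 above in *Thada*-activated cells.

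Other immediate early and rapid-response genes had been listed by role. Of 53 listed symbols 49 were in the table and 43 were tested, 0 were called between conditions with or without the replicate block, and 15 were higher and 4 lower in both replicate 3 libraries by the same rule, beside 12.6% and 12.1% of all tested genes. Their median replicate 3 term was 0.21, and their median log2 fold change between conditions was -0.06. The widest replicate 3 terms among those 19 were those of *Gadd45b* and *Gadd45a*, growth arrest and DNA damage genes that signal to stress kinases, of *Id3* and *Id1*, inhibitors of basic helix-loop-helix factors, and of *Sgk1* and *Myc*. *Gadd45b* had 11.5, 10.7 and 52.2 CPM in control and 13.5, 10.6 and 48.7 CPM in *Thada*-activated replicates 1, 2 and 3. *Gadd45a* had 26.2, 26.5 and 103 CPM in control and 32.9, 29.6 and 114 CPM in *Thada*-activated cells, by replicate number. The replicate 3 fold was 4.11 for *Id3*, 2.34 for *Id1*, 3.49 for *Sgk1*, a kinase gene induced by serum and glucocorticoids, and 2.3 for *Myc*, a growth-promoting transcription factor. All of these exceeded the other 4 libraries in both conditions, as *Ier3* did.

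Close relatives of the 10 genes did not all follow them. *Jund*, the third Jun gene, had 127, 114 and 110 CPM in control and 153, 166 and 109 CPM in *Thada*-activated replicates 1, 2 and 3, so that it was higher in *Thada*-activated cells in replicates 1 and 2 and level in replicate 3. *Fosl2* had a replicate 3 fold of 0.754, and *Fosl1* and *Egr3* did not pass the filter, with at most 0.229 CPM in any library. *Egr2* had 0.879, 0.815 and 0.688 CPM in control and 1.13, 1.09 and 1.42 CPM in *Thada*-activated replicates 1, 2 and 3. *Atf3*, a stress-responsive factor that can pair with Jun, had 4.8, 5.59 and 5.22 CPM in control and 4.17, 3.22 and 4.21 CPM in *Thada*-activated replicates 1, 2 and 3. Both separated by condition without overlap, *Egr2* with the higher level in *Thada*-activated cells (log2 0.61, SE 0.28), opposite to the estimate of *Egr1*, and *Atf3* with the lower (log2 -0.43, SE 0.20). Of all tested genes, 2.7% were higher and 2.71% lower without overlap, and neither gene was called by edgeR with or without the replicate block. Their replicate 3 folds were 1.07 and 1.06, and that of *Ier5* was 1.15.

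Upstream of these promoters, 21 of 24 listed transcription factors and cofactors were tested, and none met the replicate 3 rule or was called between conditions by edgeR with or without the replicate block. *Srf* had 48.3, 44.8 and 45.9 CPM in control and 47.6, 48 and 42.5 CPM in *Thada*-activated replicates 1, 2 and 3, and *Creb1* had 60.3, 62.2 and 57.1 CPM and then 55.9, 60.2 and 56.3 CPM. *Srf* and *Creb1* thus differed little between the libraries, but other genes of the list did not stay level. Named after their values were seen, *Elk3*, which encodes an SRF partner of the ELK group, had 129 CPM in both replicate 3 libraries against 82.2 to 92.1 CPM in the other 4, and *Ep300*, a coactivator gene, had 69 and 72 CPM against 104 to 115 CPM. Both lay beyond the other 4 libraries, but the replicate 3 fold of *Elk3* was 1.41 in control and 1.53 in *Thada*-activated cells, and that of *Ep300* 0.604 and 0.667, so each missed the rule in 1 condition. Of 33 kinase and phosphatase genes of the ERK, JNK, p38 and calcium pathways, 0 were higher and 3 lower in replicate 3 by the rule, a share under that of all tested genes (12.6% and 12.1%). The 3 were *Map2k4*, an activator of JNK (fold 0.563), *Camk4*, which phosphorylates CREB (fold 0.604), and *Hras* (fold 0.637). None of the 33 was called between conditions with either fit.

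The list of ERK feedback genes gave the widest replicate 3 differences of the lists. Like the other lists, it was chosen with earlier results of these data known. Its share beside that of all tested genes is therefore a description. ERK signalling induces these genes, and the *Dusp*, *Spry* and *Spred* genes among them dampen it. Of 12 tested, 7 were lower and 0 higher in replicate 3 by the rule, which 12.1% and 12.6% of all tested genes met. The median term was -1.01, and the folds were 0.111 for *Etv4*, 0.116 for *Etv5*, 0.173 for *Dusp6*, 0.31 for *Etv1*, 0.335 for *Spry4* and 0.489 for *Spred3*. Of the 5 that did not meet the rule, *Dusp7*, *Spry1* and *Spry2* had folds of 1.5, 1.4 and 1.09, and *Dusp4* and *Spred1* of 0.693 and 0.743. *Dusp6*, the phosphatase gene that inactivates ERK, was the 1 gene of all the lists called with the replicate block, at 41.1, 42.4 and 6.48 CPM in control and 24.3, 28 and 5.18 CPM in *Thada*-activated replicates 1, 2 and 3 (log2 fold change -0.62, adjusted p = 0.0227 by edgeR). *Etv5* of the same list had an adjusted p of 0.0357 by edgeR in that fit and missed the call by its fold alone (log2 fold change -0.58). *Egr1* shared both directions with *Dusp6*, being lower in replicate 3 and lower in the *Thada*-activated library of each number by CPM. This was not particular to *Egr1*. Named after their values were seen, *Nr4a1*, and *Npas4* and *Nfkbiz* of the rapid-response list, among others, had both directions too. The share of all tested genes that had both was not counted. *Dusp1*, a phosphatase gene that is itself an immediate early gene, had 33.7, 29.5 and 56.6 CPM in control and 33.7, 34.3 and 46.5 CPM in *Thada*-activated replicates 1, 2 and 3, so that both replicate 3 libraries lay above the other 4, but its fold of 1.79 in control and 1.37 in *Thada*-activated cells missed the rule that *Junb* met.

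On the side of mRNA decay, 19 of 21 listed genes were tested, 3 were higher, a share near the 12.6% of all tested genes, and 1 was lower, a share under the 12.1%, in replicate 3, and 0 were called between conditions with either fit. *Zfp36*, which encodes tristetraprolin, a protein that binds AU-rich elements, had a replicate 3 fold of 1.7, and *Pabpc1*, the poly(A)-binding protein gene, one of 1.98. *Btg1* had a fold of 2.03, and *Cnot6*, a deadenylase subunit gene, one of 0.576. *Zfp36* and *Btg1* were counted also among the rapid-response genes. The median term of the 19 genes was 0.04.

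Heat shock genes were listed because handling and heat can both raise immediate early genes. The 8 heat shock genes, of which the constitutive *Hspa8* was the most abundant, summed to 3320, 3490 and 2970 CPM in control and 3190, 3190 and 2560 CPM in *Thada*-activated replicates 1, 2 and 3. Of the 8, 0 were higher and 1, *Hsph1* (fold 0.423), was lower in replicate 3 by the rule, a share close to the 12.1% of all tested genes. *Hspa1a* had 7.73, 6.98 and 14 CPM in control and 8.62, 9.43 and 11.1 CPM in *Thada*-activated cells, by replicate number. The replicate 3 fold was 1.54 for *Hspa1a*, 1.28 for *Hspa1b*, 1.37 for *Hspb1*, 0.988 for *Bag3* and 0.866 for *Dnajb1*, none of which met the rule. The sum, which is mostly *Hspa8* and *Hsp90aa1*, was lowest in replicate 3, but the 8 genes did not move in 1 direction there (median term -0.06), and their part in the level of *Ier3* and *Junb* was not tested.

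β-cell genes differed in the same libraries. Of 11 tested markers 1 was higher in replicate 3 by the rule, a share under the 12.6% of all tested genes, and 4 were lower, where 12.1% of all were, with a median term of -0.58. *Pdx1*, the β-cell master factor, had 233, 205 and 106 CPM in control and 229, 222 and 112 CPM in *Thada*-activated replicates 1, 2 and 3. *Ins1* had a replicate 3 fold of 1.76, *Nkx2-2* one of 0.532, *Slc30a8* one of 0.514 and *Pcsk1* one of 0.57. *Egr1* and *Pdx1* were therefore low in the same 2 libraries, while *Ins1* was high there, and none of the 11 was called between conditions by edgeR with or without the replicate block.

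Patterns over the 6 libraries were also compared with those of the 12067 other tested genes with a mean of at least 1 CPM. The genes most like *Fos* by Pearson's r over the 6 libraries were *Ccdc112* (0.988), *Smg6* (0.985), *Ddx11* (0.979), *Slc4a8* (0.977) and *Nfkbie* (0.969). The genes most like the mean standardized profile of the 10 genes were *Rab8b* (0.982), *B3gntl1* (0.972), *Ddx11* (0.972), *Cyp27a1* (0.965) and *Erap1* (0.963). These values describe 6 libraries that fall into 2 clusters, and 24 genes had an r over 0.9 with *Fos* and 72 with the mean profile. The mean profile joins genes that went opposite ways in replicate 3, and it ran from -0.416 in *Thada*-activated replicate 1 to 0.343 in control replicate 3.

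Promoters were looked up in a table of 32851 RefSeq promoters. Immediate early promoters are compact and carry their known elements close to the start. Of the 10 genes, 8 were examined, since *Egr1* was left out of the lookup and *Ier2* had no entry in this table. Each promoter spans 250 bases before to 50 after the start of its entry on GRCm38.p6, which can differ from the gene start in GENCODE. For *Nr4a1* the window, chr15:101266596-101266895, lies inside the gene, which GENCODE places from 101254269 to 101274795. The letters searched on both strands were TGACGTCA (the full CRE, bound by CREB), TGACG (its half-site, also found inside the full CRE), TGACTCA (bound by AP-1), TATAAA (the TATA box) and GCGGGGGCG (bound by EGR proteins), together with the CArG box of SRF. The 4 genes that were higher in replicate 3 are shown first, then *Btg2*, which was lower, and *Fos*, whose conditions did not overlap, with every match in capitals. They lie at chr17:35821463-35821762 on the plus strand (*Ier3*), chr8:84978699-84978998 on the minus strand (*Junb*), chr7:19309996-19310295 on the minus strand (*Fosb*), chr2:57123954-57124253 on the minus strand (*Nr4a2*), chr1:134079106-134079405 on the minus strand (*Btg2*) and chr12:85473640-85473939 on the plus strand (*Fos*).
Ier3: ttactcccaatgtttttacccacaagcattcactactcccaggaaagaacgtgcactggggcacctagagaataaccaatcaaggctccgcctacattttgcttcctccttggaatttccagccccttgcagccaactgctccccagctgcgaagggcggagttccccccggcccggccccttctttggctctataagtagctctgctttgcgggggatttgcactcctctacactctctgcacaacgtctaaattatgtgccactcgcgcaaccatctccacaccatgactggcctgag
Junb: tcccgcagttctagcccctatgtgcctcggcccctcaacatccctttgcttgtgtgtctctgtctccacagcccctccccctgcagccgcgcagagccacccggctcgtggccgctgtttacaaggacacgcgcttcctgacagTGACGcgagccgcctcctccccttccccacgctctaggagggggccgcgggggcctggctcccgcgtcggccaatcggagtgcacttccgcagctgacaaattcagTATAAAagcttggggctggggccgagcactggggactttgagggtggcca
Fosb: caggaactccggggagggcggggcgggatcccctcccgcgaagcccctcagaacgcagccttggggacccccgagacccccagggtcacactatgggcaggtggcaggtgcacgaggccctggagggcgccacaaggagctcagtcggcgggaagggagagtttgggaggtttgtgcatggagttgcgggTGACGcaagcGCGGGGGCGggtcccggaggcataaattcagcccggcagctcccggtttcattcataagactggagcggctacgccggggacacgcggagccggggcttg
Nr4a2: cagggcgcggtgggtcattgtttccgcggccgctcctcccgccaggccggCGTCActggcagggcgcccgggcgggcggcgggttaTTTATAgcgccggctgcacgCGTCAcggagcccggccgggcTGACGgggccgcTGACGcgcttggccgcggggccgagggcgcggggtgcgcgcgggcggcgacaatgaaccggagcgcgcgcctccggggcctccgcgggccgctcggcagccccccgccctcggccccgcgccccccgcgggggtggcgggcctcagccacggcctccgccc
Btg2: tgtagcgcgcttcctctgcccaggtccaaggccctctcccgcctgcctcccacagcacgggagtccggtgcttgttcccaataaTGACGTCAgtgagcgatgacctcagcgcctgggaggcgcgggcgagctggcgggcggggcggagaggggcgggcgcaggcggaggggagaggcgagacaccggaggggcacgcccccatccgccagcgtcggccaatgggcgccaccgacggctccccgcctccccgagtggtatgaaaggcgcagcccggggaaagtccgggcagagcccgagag
Fos: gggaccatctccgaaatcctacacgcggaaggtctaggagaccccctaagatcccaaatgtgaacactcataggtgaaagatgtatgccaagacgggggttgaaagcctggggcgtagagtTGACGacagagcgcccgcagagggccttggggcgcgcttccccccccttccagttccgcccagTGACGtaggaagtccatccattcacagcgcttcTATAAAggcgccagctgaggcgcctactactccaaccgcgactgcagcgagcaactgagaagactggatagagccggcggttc

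The half-site TGACG was in 6 of the 8 promoters, those of *Fos*, *Fosb*, *Junb*, *Nr4a1*, *Nr4a2* and *Btg2*, and in 20.8% of the 32851 promoters of the table. The GC content of these 6 ran from 58.7% (*Fos*) to 81.7% (*Nr4a2*), against a median of 52.7% over all promoters. The part of GC content in the difference was not tested. *Nr4a1* and *Nr4a2* had 4 matches each, *Fos* and *Btg2* 2 each, and *Fosb* and *Junb* 1 each. The full TGACGTCA was in the *Btg2* promoter alone among the 8, and in 1.79% of all promoters. TATAAA was in those of *Fos*, *Junb* and *Nr4a2* and in 13.6% of all, GCGGGGGCG in those of *Fosb* and *Nr4a1* and in 2.91% of all. Relative to the start of the entry, TATAAA began at -33 in *Fos* and at +1 in *Junb*. In *Nr4a2* it was on the opposite strand, at -164. TGACTCA and the CArG box, held by 5.2% and 1.63% of all promoters, were in none of the 8 windows, which says only that these letters are not in this stretch. The *Ier3* promoter, of the gene with the widest replicate 3 difference, held none of the elements searched, and so did that of *Jun*. The half-site was present both in genes that were high in replicate 3, such as *Nr4a2*, and in *Btg2*, which was low there. A match describes the sequence and is not a site shown to be bound.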

How the data were processed

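RNA of 6 MIN6 libraries was analysed, 3 per condition, with conditions and replicate numbers taken from the labels. The submitters' processing notes name Bowtie2, RSEM and DESeq2 and the build GRCm38. The authors deposited estimated counts per gene, not normalized, and between 91.1% and 91.9% of these per library came with no fractional part as deposited (no tolerance applied); all were rounded before testing. The authors also deposited FPKM, scaled by gene length and library size, and TPM, scaled by length and then to a fixed total. The fold changes, p-values and q-values that the authors deposited from their own DESeq2 comparison were not used.

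Genes were kept by filterByExpr, scaled by TMM and compared by the quasi-likelihood test of edgeR 4.0.16 (robust, condition as the only term) in R 4.3.3, with a call requiring both an adjusted p (Benjamini-Hochberg, all 12516 tested genes) below 0.05 and more than a 1.5-fold change. The biological coefficient of variation was 0.253. Alternatives used DESeq2 1.42.0 and limma 3.58.1, the latter on log2(FPKM + 1) and log2(FPKM + 0.1). Log2 CPM differences between libraries added 0.5 to each count. Levels at or under 3 counts were taken as the floor, which covers counting error only. Replicate 3 was described by both of its libraries lying beyond the other 4 with a fold over 1.5 within each condition, and its term was fitted beside condition. Genes named were the 10 members, *Thada*, list genes called in either fit, up to 6 per list with the widest replicate 3 difference among those meeting that rule, relatives by role, and the 5 nearest patterns. Members and lists were chosen with earlier results of these data known. The fits were also run on counts simulated at a dispersion of 0.004 for every gene. No result given here rests on that run. Gene positions and overlaps came from GENCODE M21.

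After group means were removed, the correlation across genes between the conditions was 0.596 in replicate 1, 0.607 in replicate 2 and 0.842 in replicate 3, so the numbers were treated as pairing the libraries, on these data and not on a label. Crossing replicates 1 and 2 gave 0.691 and 0.652, so the pairing separates replicate 3 only. The paper's reporting summary states for its in vitro work as a whole that there were at least 3 independent experiments. Its method for RNA sequencing gives n = 3 and does not say whether each library came from a separate culture. The p-values therefore measure the spread between these samples, which may be technical.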

Additional observations from a re-analysis of the deposited data

How the results depend on the processing

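The count of 0 called genes between conditions (101 at an unadjusted p under 0.05) was 5 with the DESeq2 Wald test and 19 with the replicate block, and 0 under DESeq2 size factors, no filter, library sizes without the 20 top genes, limma on FPKM, no fold threshold and each library left out in turn. With replicates 1 and 2 only, chosen after seeing the data, it was 68, and 70 with the replicate block added. These 2 fits use fewer libraries and no replicate 3. The 10 genes had 0 calls under every one of these settings. Among the listed genes the replicate block added the call of *Dusp6*. The block also gave a call of *Thada*, which is in none of the lists and which the DESeq2 Wald test called without the block.

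Without control replicate 3 the estimates of *Fosb* (0.061), *Junb* (0.31), *Nr4a2* (0.23), *Ier3* (0.59) and *Btg2* (-0.19) changed sign. Over the 6 libraries left out in turn, the log2 fold change ran from -0.52 to 0.061 for *Fosb*, from -0.38 to 0.31 for *Junb*, from -0.34 to 0.23 for *Nr4a2*, from -0.94 to 0.59 for *Ier3* and from -0.19 to 0.29 for *Btg2*, with signs changed also without *Thada*-activated replicate 1 or 2 for the last 4. Leaving out 1 library unbalances replicate 3 between the conditions. *Fos* ran from -0.44 to -0.27 and *Egr1* from -0.61 to -0.02. With replicate 3 as a term, added after seeing the data, their adjusted p was 0.141 and 0.12 by edgeR.

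The count of 6 genes beyond the other libraries in replicate 3 was 3 by TPM, an alternative chosen after seeing the data, and did not change by more than 1.5 times under DESeq2 size factors, CPM without TMM, FPKM or no fold threshold. The count of 6 genes with the same sign in all 3 replicate numbers did not change by more than 1.5 times under CPM without TMM, FPKM or TPM.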
